A study of Mus musculus with 9 samples.

Results

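The 10 genes described here encode the enzymes of de novo lipogenesis, the synthesis of fatty acids from carbohydrate, and their regulators. They were chosen by name, for their known roles, with earlier results of these data known. The genes are Acly, Acaca, Acacb, Fasn, Me1, Scd1, Scd2, Srebf1, Mlxipl and Thrsp. They are 10 of the 55416 genes in the count table. All 10 were measured in all 9 libraries and passed the filter on low counts, which 12260 genes passed.

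In this pathway cytosolic citrate is cleaved to acetyl-CoA, acetyl-CoA is carboxylated to malonyl-CoA, and fatty acid synthase builds palmitate from both with NADPH as the reductant. The desaturases then turn saturated into monounsaturated fatty acids. Brown fat burns fatty acids for heat and can also make them, and insulin, acting through SREBP1, and glucose, acting through ChREBP, are known to drive the genes of the pathway.

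The RNA came from the interscapular brown fat of Cas9-expressing C57BL/6J mice aged 8 to 10 weeks. An AAV8 vector, an adeno-associated virus, was injected into that fat and carried a guide RNA against Ucp1 in 4 samples and a control guide RNA in 5, and every mouse then spent 14 days at 22 °C. Ucp1 encodes the uncoupling protein through which brown fat releases heat. All animals carry Cas9 and all received the vector. The labels do not say which promoter drives Cas9, which cells of the fat took up the vector, or whether a library is 1 animal or a pool.

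The deposited table names its columns by numbers that occur in no label. The libraries are therefore called BAT-A to BAT-H and BAT-J here, in the order of the columns, and no library was assigned to a guide and no comparison between the guides was made. Values are therefore given for each library or as the lowest, median and highest. A difference made by the guides and a difference between animals of the same guide cannot be told apart in any value or correlation below.

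Each library held 15460829 to 17909534 counts. Levels are CPM, a gene's counts divided by the library's total and multiplied by 1000000, and the exact (Clopper-Pearson) 95% interval of a level of these genes reached at most 6.47% of it to either side, which covers counting error only. General adipocyte markers summed to 12113 to 16746 CPM and brown adipocyte markers other than Ucp1 to 2923 to 4138 CPM, so the markers of the labelled tissue were present in all 9 libraries. White adipocyte markers summed to 37.1 to 127.9 CPM, macrophage markers to 32.8 to 84.7, endothelial markers to 376.9 to 587.3, fibroblast markers to 164.9 to 390.5 and blood markers to 236.6 to 457.5. Hepatocyte markers, a check because liver is strongly lipogenic, summed to 2.48 to 40.0 CPM, and lymphocyte markers to 0.681 to 4.05. Skeletal muscle markers ranged most, from 243.8 CPM in BAT-B to 4599.9 in BAT-E. Genes of the mitochondrial genome took 22.3% to 33.9% of the counts. In bulk tissue, fewer cells of a type and less RNA per cell cannot be told apart.

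The promoters of 4 of these genes are shown because repeated matches to a common promoter motif were found there, and because these genes were among those with low values in the same libraries. Each is the 250 bases before the start of transcription, read along the gene's strand, from RefSeq on GRCm38.p6. In capitals are matches on either strand to CCAAT (the CCAAT box) in Fasn and Thrsp and to GGGCGG (the GC box) in Acly and Me1.
Fasn: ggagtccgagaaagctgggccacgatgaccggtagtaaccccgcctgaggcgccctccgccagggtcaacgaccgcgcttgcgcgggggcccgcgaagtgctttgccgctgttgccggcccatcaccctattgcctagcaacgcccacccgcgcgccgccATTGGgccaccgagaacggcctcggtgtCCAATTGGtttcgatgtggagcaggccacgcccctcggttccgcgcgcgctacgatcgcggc
Thrsp: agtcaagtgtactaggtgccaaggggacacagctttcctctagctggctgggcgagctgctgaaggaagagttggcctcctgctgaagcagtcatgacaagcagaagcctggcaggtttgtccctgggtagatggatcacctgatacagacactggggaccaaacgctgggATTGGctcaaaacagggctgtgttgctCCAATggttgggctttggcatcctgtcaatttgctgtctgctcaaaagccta
Acly: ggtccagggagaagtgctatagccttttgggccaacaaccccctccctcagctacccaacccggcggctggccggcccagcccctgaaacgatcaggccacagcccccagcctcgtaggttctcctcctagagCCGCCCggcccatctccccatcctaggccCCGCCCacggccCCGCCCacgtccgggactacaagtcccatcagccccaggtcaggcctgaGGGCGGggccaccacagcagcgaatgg
Me1: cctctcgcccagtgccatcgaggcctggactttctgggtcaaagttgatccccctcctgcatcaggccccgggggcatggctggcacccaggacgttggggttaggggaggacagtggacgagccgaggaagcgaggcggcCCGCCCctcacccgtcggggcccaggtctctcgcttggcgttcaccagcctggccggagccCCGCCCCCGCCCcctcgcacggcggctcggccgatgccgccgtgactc

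The Fasn stretch lies at chr11:120824548-120824797 on the minus strand and holds 3 CCAAT boxes, of which the last 2 overlap in the letters CCAATTGG. That of Thrsp lies at chr7:97417551-97417800 on the minus strand and holds 2. That of Acly, at chr11:100528001-100528250 on the minus strand, holds 4 GC boxes. That of Me1, at chr9:86695915-86696164 on the minus strand, holds 3. Another RefSeq promoter entry of Me1 holds 1 CCAAT box and no GC box. Repeated GC boxes also occur in Srebf1 (2 in each of 2 entries) and Mlxipl (2 in 1 entry). BAT-A and BAT-C were not the lowest 2 libraries for either gene. The entry of Acaca holds neither motif, although BAT-A and BAT-C were its lowest 2 libraries. Of 32851 RefSeq promoters of this length, 33.85% hold at least 1 CCAAT box and 32.74% at least 1 GC box, so the presence of either motif does not set these genes apart. The share of promoters with repeated matches was not counted. The motif CACGTG (the E-box, bound by ChREBP and SREBP1) was in 6.02% of promoters and TCACNCCAC (a sterol regulatory element) in 1.05%. Among the 12 promoter entries of the 8 genes with any, CACGTG was found in 1 entry of Mlxipl and TCACNCCAC in the other. The counts of this study do not read promoters, so a match is a feature of the sequence and nothing more.

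Acly (ENSMUSG00000020917), ATP citrate lyase, makes the cytosolic acetyl-CoA that begins the pathway. Its level was 885.1 CPM in BAT-A, 888.5 in BAT-C, and between 2123.5 in BAT-B and 3698.3 in BAT-D in the other 7 libraries, with a median of 2799.5 over all 9. The 2 low libraries stood clear of the rest, and the highest level was 4.18 times the lowest. Without them it was 1.74 times.

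Acaca (ENSMUSG00000020532) and Acacb (ENSMUSG00000042010) encode the acetyl-CoA carboxylases. The product of Acaca makes malonyl-CoA for synthesis in the cytosol, and that of Acacb, at the mitochondrial surface, makes malonyl-CoA that restrains fatty acid entry into mitochondria. Acaca was lowest at 1863.2 CPM in BAT-A, 2002.7 in BAT-C, had a median of 2807.5, and was highest at 3822.4 in BAT-D. Acacb did not share that order: it was lowest at 1523.6 CPM in BAT-B, had a median of 1925.8 and was highest at 2544.1 in BAT-J, while BAT-A (1932.7) and BAT-C (1925.8) lay at its middle. Counts of Acaca over Acacb were 0.964 in BAT-A and 1.04 in BAT-C, against 1.28 to 1.96 in the other 7 libraries.

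Fasn (ENSMUSG00000025153) encodes fatty acid synthase. It was lowest at 17289.9 CPM in BAT-A, 19132.7 in BAT-C, had a median of 27910.0 and was highest at 34788.3 in BAT-J. The 7 other libraries lay between 25482.1 and 34788.3. Fasn kept a nearly fixed ratio to Acaca, between 9.01 and 10.6 counts per count of Acaca in all 9 libraries, a range of 1.18 times, the narrowest of the 6 ratios computed. Its ratio to Acly was 19.5 in BAT-A and 21.5 in BAT-C and between 9.1 and 12.4 elsewhere, so Acly was low by more than Fasn in these 2 libraries. These ratios do not depend on how libraries are scaled.

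Me1 (ENSMUSG00000032418), malic enzyme, supplies NADPH. Its level was 424.9 CPM in BAT-A, 472.2 in BAT-C, 795.1 at the median and 1211.7 in BAT-F. Libraries BAT-F, BAT-H, BAT-J and BAT-G held 1090.7 to 1211.7 CPM, and the other 5 held at most 795.1. The first 4 are also the libraries with the lowest Ucp1 and the lowest share of mitochondrial genome genes, whose values stand with those of Ucp1 at the end.

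Scd1 (ENSMUSG00000037071) and Scd2 (ENSMUSG00000025203) encode stearoyl-CoA desaturases. Scd1 was lowest at 15308.0 CPM in BAT-A, had a median of 22839.4 in BAT-C and was highest at 41134.8 in BAT-D. Scd2, at a small fraction of that level, was lowest at 58.45 CPM in BAT-A, 69.17 in BAT-C, had a median of 159.2 and was highest at 254.7 in BAT-H. Its highest level was 4.36 times its lowest, and 1.82 times without these 2 libraries. Over all 9 libraries Scd2 and Acly varied most of the 10 genes, Scd2 more in CPM and Acly more under each of the other 4 scalings, for example 4.66 against 4.22 times with TMM factors. Counts of Scd1 over Scd2 ran from 85.5 in BAT-H to 330.2 in BAT-C, so the desaturases did not keep a fixed ratio.

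Srebf1 (ENSMUSG00000020538) encodes SREBP1, a transcription factor of lipogenic genes that is active only after it is cut from the membrane, so its RNA level is not its activity. It was lowest at 163.3 CPM in BAT-F, had a median of 253.8 and was highest at 384.3 in BAT-H. Library BAT-A (259.1) lay above that median and BAT-C (253.8) on it. Mlxipl (ENSMUSG00000005373) encodes ChREBP, the glucose-responsive factor, and ranged from 314.5 CPM in BAT-C to a median of 401.7 and 489.9 in BAT-J, 1.56 times. Gene counts merge the isoforms of both factors, which differ in activity.

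Thrsp (ENSMUSG00000035686), a small protein induced by thyroid hormone and linked to lipogenesis, was 1237.6 CPM in BAT-A and 1414.3 in BAT-C and between 2092.4 and 2697.9 in the other 7 libraries, with a median of 2428.3. Its highest level was 2.18 times its lowest, and 1.29 times without these 2 libraries.

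**Figure D1:**
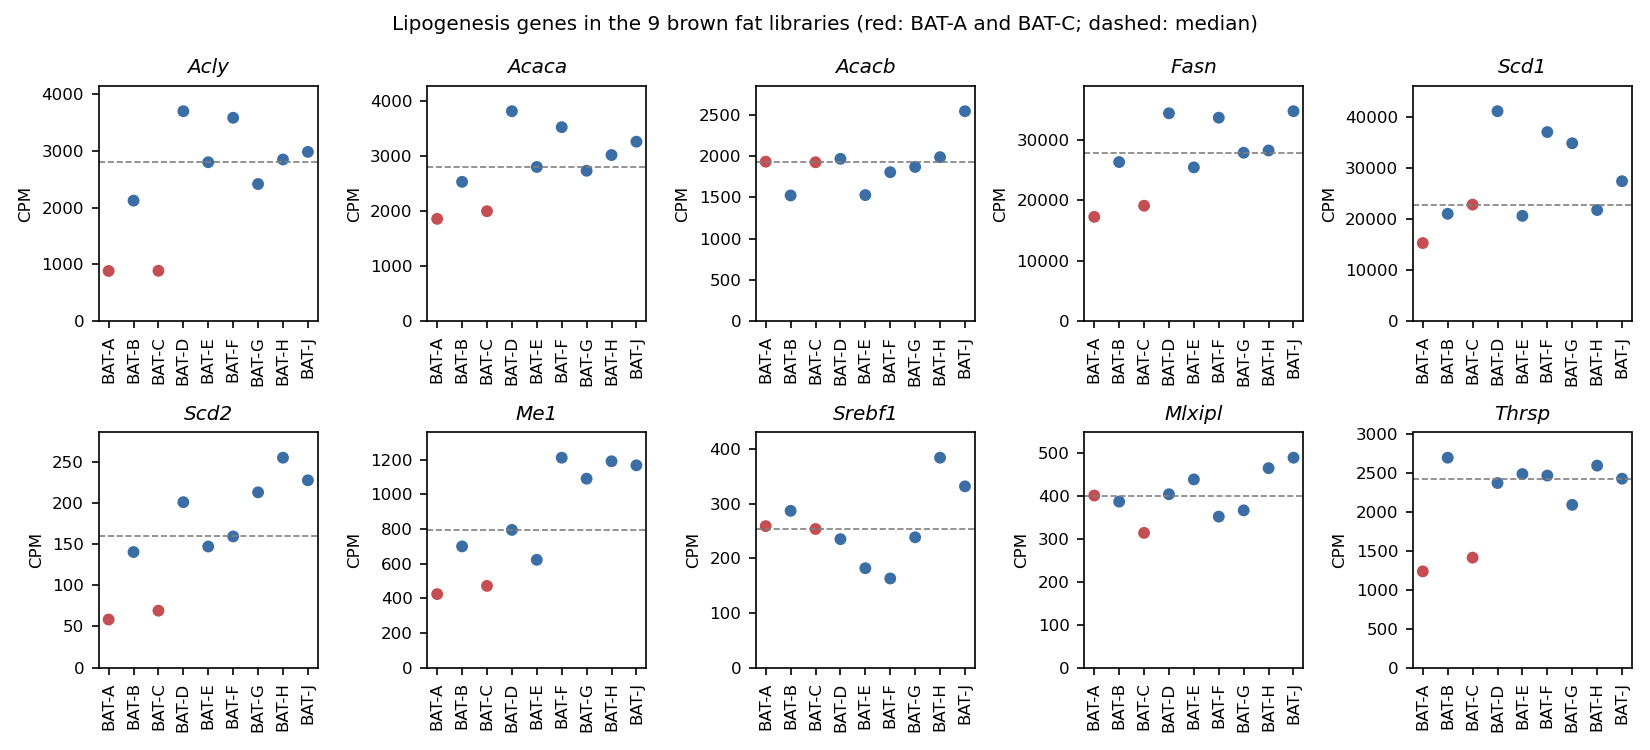
Level of each of the 10 genes in CPM (vertical axis, from 0) in each of the 9 libraries (horizontal axis), with BAT-A and BAT-C in red and the median as a dashed line. Acly falls to 885.1 and 888.5 CPM in the red libraries, while Acacb and Srebf1 place them near the median.

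Library BAT-A was the lowest for 7 of the 10 genes, and BAT-A and BAT-C were the lowest 2 for 6 of them: Acly, Acaca, Fasn, Me1, Scd2 and Thrsp. The share of all tested genes with the same lowest libraries was not counted. These counts therefore do not show whether the low values are particular to the lipogenesis genes. Together the 10 genes took 3.97% of the counts in BAT-A, 4.93% in BAT-C and up to 8.91% in BAT-D, with Fasn and Scd1 making up 79.7% to 85.1% of these. Mitochondrial genome genes took 33.8% of the counts in BAT-A and 31.8% in BAT-C, within the range of the other libraries, and skeletal muscle markers summed to 1893.6 and 2835.0 CPM there. The part of either in these low values was not tested.

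**Figure D2:**
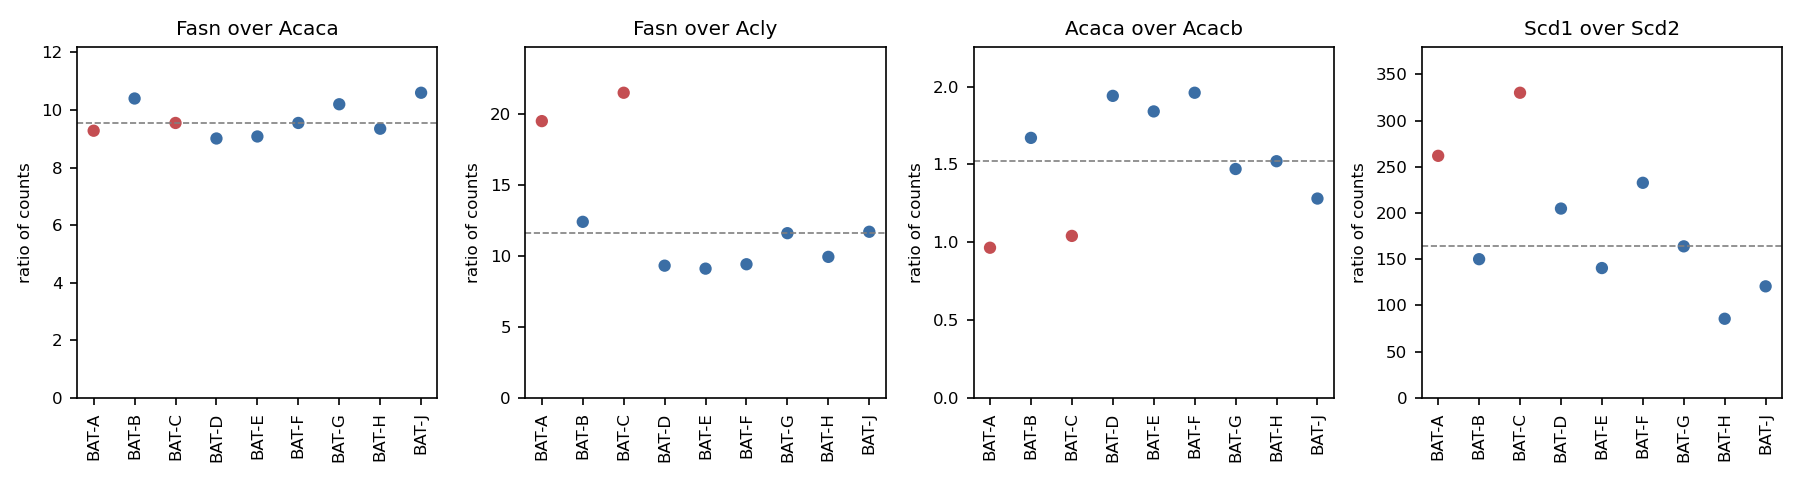
Ratio of counts (vertical axis, from 0) of Fasn over Acaca, Fasn over Acly, Acaca over Acacb and Scd1 over Scd2 in each library (horizontal axis), with BAT-A and BAT-C in red and the median as a dashed line. Fasn over Acaca stays between 9.01 and 10.6, and Fasn over Acly reaches 19.5 and 21.5 in the red libraries.

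Per kilobase of exon, from the GENCODE M21 gene models, the median levels in CPM per kb ran from Scd1 at 4668.7 and Fasn at 2549.6 through Thrsp at 1109.3, Acly at 530.3, Me1 at 206.6, Acacb at 199.9 and Acaca at 164.4 to Mlxipl at 72.54, Srebf1 at 45.04 and Scd2 at 29.14. The enzymes thus lay above the transcription factors, with Scd2 as the exception. Of these neighbours only Fasn and Thrsp, and Acaca and Mlxipl, had ranges over the 9 libraries that did not overlap. Me1 was above Acacb in 7 of the libraries, Acacb above Acaca in 6 and Srebf1 above Scd2 in 8. The other neighbours kept their order in all 9. The order of Acacb and Acaca depends on the exon lengths used, 9632 bases for Acacb and 17074 for Acaca. Before that division, counts of Acaca over Acacb were 0.964 in BAT-A and 1.04 to 1.96 in the other libraries. Which exons the transcripts in this tissue include was not tested, so this order does not show which gene had more transcripts.

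The highest level over the lowest, across the 9 libraries, had a median of 2.27 among the 10 genes and 1.7 among the 12260 tested genes. Of the 10, 8 lay above that median, with Acacb at 1.67 and Mlxipl at 1.56 below it.

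Mutual correlation was measured as Spearman's rho of CPM over the 9 libraries with a two-sided exact permutation test. Acly and Thrsp fell into separate clusters of 2 and 7 libraries and were left out of the pooled correlations, which leaves 8 genes and 28 pairs. After Benjamini-Hochberg adjustment over the 122545 pairs of any of the 10 genes with any tested gene, 0 of the 28 pairs passed an adjusted p of 0.05 in the exact permutation test, and 0% of all pairs of the 8 genes did. The lowest adjusted p was 0.401 among the 28 and 0.225 over all pairs by this exact test. The design limits this: the smallest exact p that 9 libraries can give is 5.51e-06, and 14 pairs at that p would have been needed for a call.

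At an unadjusted exact p under 0.05, 7 of the 28 pairs (25.0%) were positive, against 4.25% of all pairs of these genes with any gene, and 0 were negative, against 4.27%. The median rho of the 28 pairs was 0.483 and that of all pairs 0.0167, with 25 above 0 and 3 below. All 7 pairs were among Acaca, Fasn, Me1, Scd1 and Scd2. The count was 3 with mitochondrial genome genes left out of the total, 2 with levels scaled to adipocyte markers and 3 without BAT-A. With mitochondrial genome genes left out, the 3 were Acaca with Fasn, Fasn with Scd1 and Acaca with Scd1, so no pair with Me1 or Scd2 remained. These counts describe these libraries, since no pair passed the adjustment.

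Over all 9 libraries Acaca and Fasn had the highest rho of the 28 pairs, 0.9 (exact permutation p = 0.00203, adjusted p = 0.401) and Pearson's r of 0.97 on log2(CPM + 1) (exact permutation p = 0.00013). Without BAT-A and BAT-C, which are also the libraries farthest from the median of either gene, r was 0.889 (exact permutation p = 0.0157) and rho 0.786 (exact permutation p = 0.048) over 7 libraries. Acaca shares sequence with the pseudogene Gm5182: 30.428% of its 50-base windows occur in other genes, and Gm5182 itself had 188 to 619 counts. Me1 likewise shares 28.343% of its windows, mainly with Gm7049, which had 29 to 103 counts.

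Fasn and Me1 had rho 0.817 and r 0.857 (exact permutation p = 0.0108 and 0.00289, adjusted p of the rho 0.46). Scd2 and Me1 had rho 0.817 and r 0.897 (exact permutation p = 0.0108 and 0.000978, adjusted p of the rho 0.46). Without the 2 low libraries, which are also the farthest from the median of Fasn and of Scd2, r was 0.53 and 0.681 (exact permutation p = 0.202 and 0.0984), so neither passed the threshold over the remaining 7. On leaving out only 1 of them both kept rho 0.738 (exact permutation p = 0.0458). With mitochondrial genome genes left out of the total, rho was 0.533 for Fasn with Me1 and 0.667 for Scd2 with Me1 (exact permutation p = 0.148 and 0.0589). Fasn and Scd1 had rho 0.75 and r 0.775 (exact permutation p = 0.0255 and 0.0145), and r 0.721 without these 2 libraries (exact permutation p = 0.0853). The other 3 of the 7 were Fasn with Scd2 (rho 0.8, r 0.883), Acaca with Me1 (rho 0.75, r 0.79) and Acaca with Scd1 (rho 0.733, r 0.779), with exact permutation p of the rho of 0.0138, 0.0255 and 0.0311 and of the r of 0.00407, 0.0117 and 0.0145. Without these 2 libraries their r was 0.372, 0.343 and 0.71 (exact permutation p = 0.374, 0.439 and 0.0837). Of the 28 pairs, 3 were positive at an unadjusted exact p under 0.05 without BAT-A and BAT-C (10.7%, against 4.21% of all pairs). Of the 7 pairs above, only Acaca with Fasn was among them. The highest of the 3 was Acacb with Scd2, with rho 0.929 and r 0.802 (exact permutation p = 0.00675 and 0.0228), against rho 0.517 and r 0.218 over all 9 libraries (exact permutation p = 0.162 and 0.562). The third was Acacb with Fasn.

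**Figure D3:**
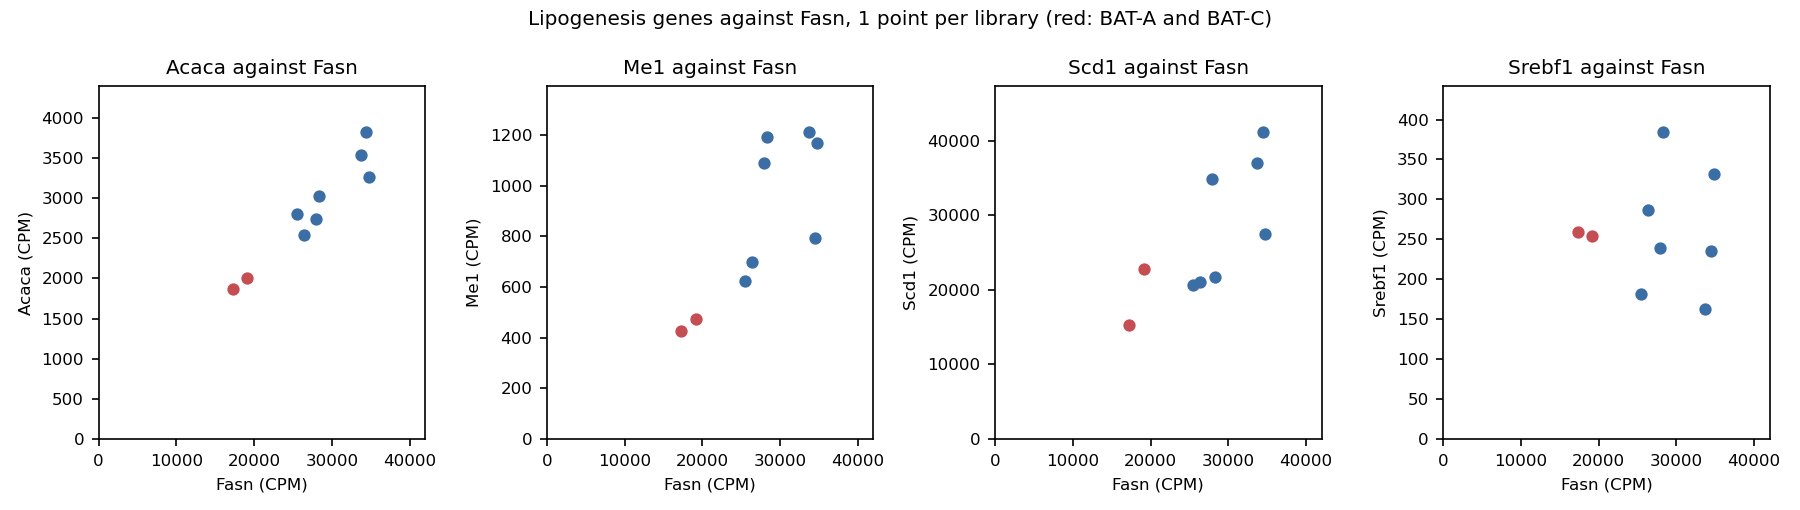
Level of Acaca, Me1, Scd1 and Srebf1 (vertical axes, CPM, from 0) against that of Fasn (horizontal axis, CPM, from 0), with 1 point per library and BAT-A and BAT-C in red. Acaca lies along a line with Fasn (rho 0.9), while Srebf1 shows no order (rho 0.0333).

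For the transcription factors, 0 of the 13 pairs with Srebf1 or Mlxipl reached an unadjusted exact p under 0.05. Srebf1 had rho 0.0333 with Fasn (exact permutation p = 0.948), -0.283 with Acaca (exact permutation p = 0.463) and -0.367 with Scd1 (exact permutation p = 0.336), and Mlxipl had rho 0.417 with Fasn (exact permutation p = 0.27). Pearson's r was -0.0463 for Srebf1 with Fasn (exact permutation p = 0.908), -0.141 with Acaca (0.716) and -0.329 with Scd1 (0.385), and 0.383 for Mlxipl with Fasn (0.31). With 9 libraries these values do not show that the genes vary independently. Acacb had rho 0.45 and r 0.254 with Fasn (exact permutation p = 0.23 and 0.506) and rho 0.3 and r 0.191 with Acaca (exact permutation p = 0.437 and 0.626). Without BAT-A and BAT-C its rho with Fasn was 0.786 and its r 0.743 (exact permutation p = 0.048 and 0.045), so its relation to Fasn depends on them. Srebf1 shares 109 exon bases with Rai1 on the opposite strand, and Rai1 had 371 to 710 counts.

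**Figure D4:**
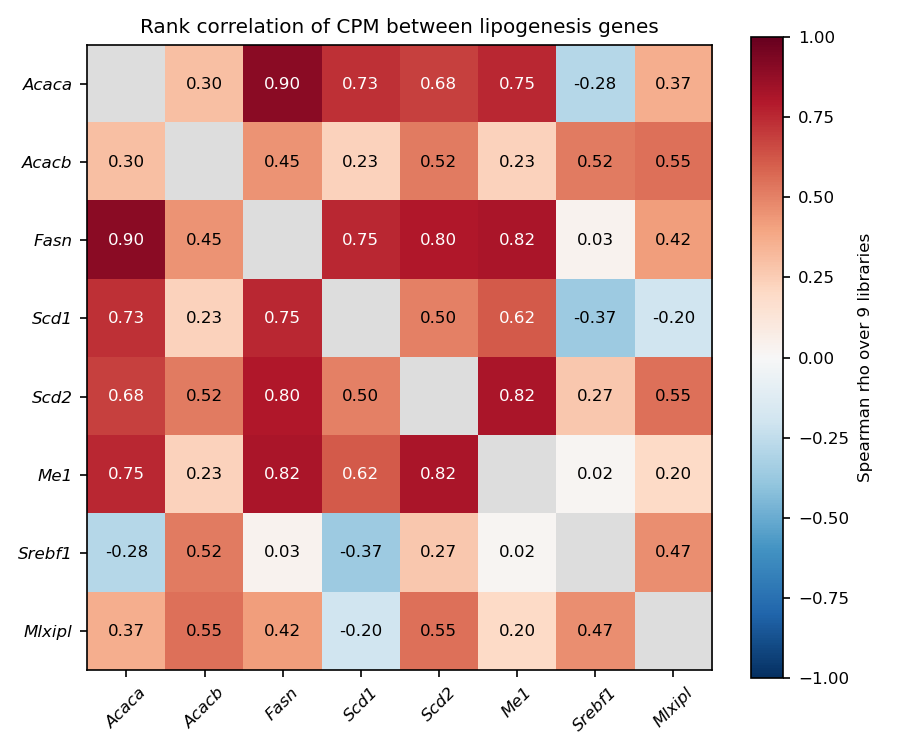
Spearman's rho of CPM over the 9 libraries for each pair of the 8 genes without separate clusters (rows and columns; colour from -1 in blue to 1 in red). Acaca, Fasn, Scd1, Scd2 and Me1 form the red block, with rho up to 0.9, and the 3 negative values, down to -0.367, lie with Srebf1 and between Scd1 and Mlxipl (-0.2).

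Within the 7 libraries of its larger cluster, Acly ranked exactly as Acaca did, with rho 1.0 (exact permutation p = 0.000397, the smallest such p at 7 libraries, adjusted p = 0.695) and r 0.965 (exact permutation p = 0.000397). It had rho 0.786 with Fasn (exact permutation p = 0.048, adjusted p = 0.996) and r 0.772 (exact permutation p = 0.0484). In the same 7 libraries Thrsp had rho -0.464 with Fasn and -0.714 with Scd1 (exact permutation p = 0.302 and 0.0881), and r -0.185 and -0.647 (exact permutation p = 0.743 and 0.104). Both signs are negative although Thrsp, Fasn and Scd1 were all lowest in BAT-A, and neither passed the threshold.

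Of 30 further genes of the pathway, 28 were tested (all but Pklr and Scd4), and 4 of these, Pgd, Tkt, Acss2 and Slc25a1, fell into separate clusters. Of the other 24, 21 had a rho above 0 with Fasn, and their median rho was 0.308 against -0.0167 over all genes. At an unadjusted exact p under 0.05, 6 (25.0%) were positive, against 3.59% of all genes, and 0 were negative, against 5.91%. In the exact permutation test with adjustment, 0 passed, as did 0% of all genes, and the lowest adjusted p over all genes was 0.253.

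The highest were G6pdx, the first enzyme of the NADPH-making pentose phosphate pathway, with rho 0.783 (exact permutation p = 0.0172), Insig1, which retains SREBP in the endoplasmic reticulum, with 0.75 (exact permutation p = 0.0255), and Elovl6, which elongates palmitate, with 0.733 (exact permutation p = 0.0311). Pearson's r was 0.679, 0.78 and 0.688 (exact permutation p = 0.0474, 0.0129 and 0.0425), and 0.431, 0.38 and 0.687 without the 2 libraries with Fasn farthest from its median (exact permutation p = 0.333, 0.371 and 0.106). Their adjusted p by the exact test on rho was 0.424, 0.436 and 0.449. Taldo1, another pentose phosphate enzyme, had the same rho as Elovl6, and its r of 0.664 (exact permutation p = 0.0537) was 0.154 without the same 2 libraries (exact permutation p = 0.712). The levels of the first 3 ran from 314.8 to 549.7 CPM for G6pdx, up to 639.3 with a median of 329.0 for Insig1 and 981.9 to 1569.7 for Elovl6. Pgd, the next NADPH-making enzyme after G6pdx, had rho 0.786 within 7 libraries (exact permutation p = 0.048) and was lowest in BAT-A at 287.9 CPM. The lowest were Dgat2, which makes triglyceride, with -0.367 (exact permutation p = 0.336) and Fads2, a desaturase of polyunsaturated fatty acids, with -0.25 (exact permutation p = 0.521), and their r was -0.593 and -0.194 (exact permutation p = 0.0914 and 0.629). Without the same 2 libraries the r of Dgat2 was 0.237, the opposite sign, and that of Fads2 -0.383 (exact permutation p = 0.659 and 0.378). The 6 genes at an unadjusted exact p under 0.05 were G6pdx, Insig1, Elovl6, Taldo1, Idh1 and Insig2, and of these 0 remained at an unadjusted exact p under 0.05 without BAT-A and BAT-C, with mitochondrial genome genes left out of the total, or with levels scaled to adipocyte markers.

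**Figure D5:**
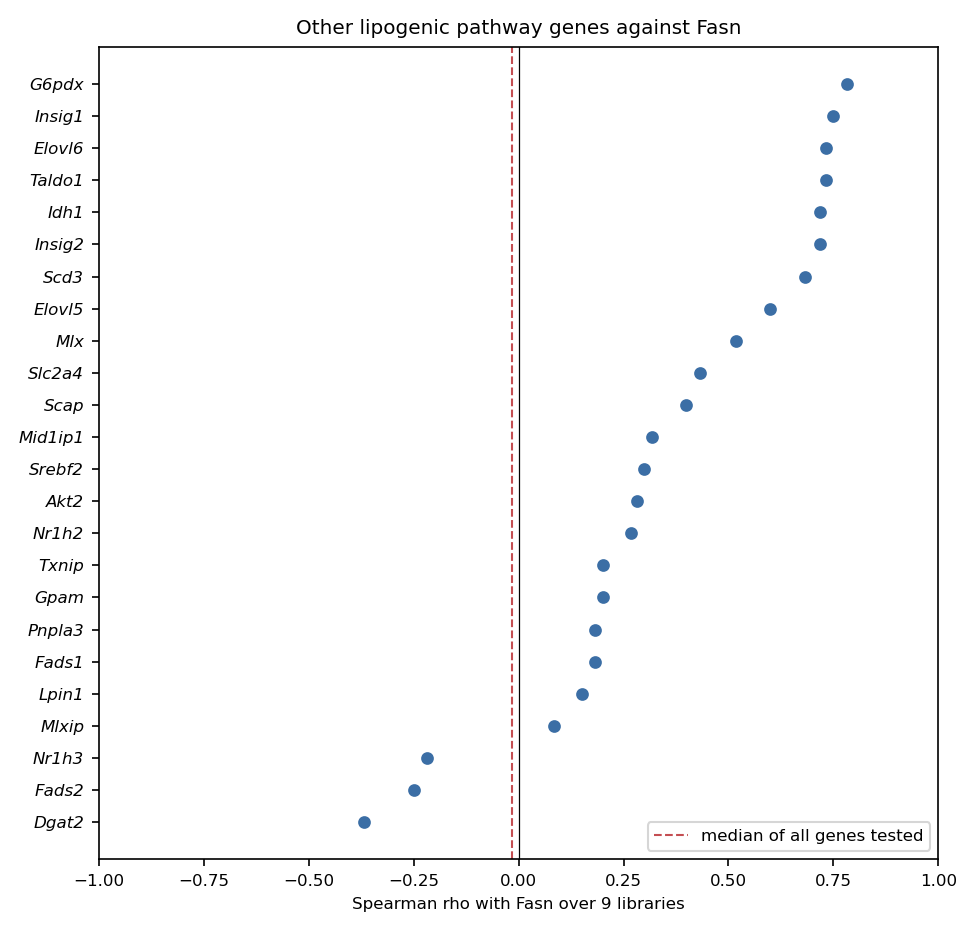
Spearman's rho with Fasn over the 9 libraries (horizontal axis) for the 24 further pathway genes without separate clusters (vertical axis), with the median of all tested genes as a dashed red line. The values run from -0.367 for Dgat2 to 0.783 for G6pdx, and 21 of the 24 lie above 0.

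The genes with a pattern most like Fasn, by Pearson's r of log2(CPM + 1) over the 9 libraries among 7503 genes, included Tmem268 (0.949), Lss, a cholesterol synthesis enzyme (0.937), and Ank (0.932). Pmvk, another cholesterol synthesis enzyme, and Pgd were also among the top 5 but fell into separate clusters, so no r is given. Nearest to the mean of the 10 scaled genes was C130074G19Rik (0.988), at 67.7 CPM in BAT-A and 108.6 in BAT-J, followed by Parm1 (0.956) and Sbk1 (0.955). These genes were picked as the highest of many, so no p is given. The mean of the 10 genes includes Acly and Thrsp, which fell into separate clusters. Their part in the r with that mean was not tested.

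Ucp1 itself was 2704.2 to 4619.9 CPM in 5 libraries and 396.0 to 605.6 in the other 4, BAT-F, BAT-G, BAT-H and BAT-J. These are separate clusters, each under the 6 libraries needed for a correlation, so no rank correlation of the lipogenesis genes with Ucp1 is given. The same 4 libraries were the 4 highest for Me1, at 1090.7 to 1211.7 CPM against at most 795.1 elsewhere. They were also the 4 highest for G6pdx (515.5 to 549.7 against at most 437.3), Insig1 (415.9 to 639.3 against at most 329.0) and Taldo1 (794.4 to 983.1 against at most 756.1). Of the further pathway genes, Pgd, Elovl5, Srebf2, Scap and Scd3 had the same 4 libraries as their highest too. The margin was 54.73 CPM in BAT-H against 54.56 in BAT-A for Scap, and 597.1 in BAT-G against 588.9 in BAT-D for Pgd. It was 53.88 in BAT-F against 51.51 in BAT-A for Srebf2, and 0.7875 in BAT-H against 0.3234 in BAT-E for Scd3. The counting intervals of these levels overlap for each of these genes. Those of Elovl5 do not, at 120.5 in BAT-F against 103.0 in BAT-E. Genes of the mitochondrial genome took 22.3% to 26.5% of the counts in these 4 libraries, against 31.5% to 33.9% in the other 5. These orders are of CPM, were noticed in the data and were not tested. The part of the mitochondrial share in them was not tested. Whether each order remains with mitochondrial genome genes left out of the total was not tested either. The share of all tested genes with the same 4 libraries highest was not counted, so these genes have no background to be judged by. The remaining further pathway genes, and the lipogenesis genes other than Me1, did not have this order. Fasn did not split this way: BAT-D, at 2704.2 CPM of Ucp1, held 34443.0 CPM of Fasn, and BAT-J, at 458.7, held 34788.3. BAT-A and BAT-C, with the lowest Fasn, held 3848.1 and 3936.6 CPM of Ucp1.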

How the data were processed

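RNA-seq of interscapular brown fat was deposited by the authors as a table of raw counts per Ensembl gene for 9 libraries. The submitters' processing notes name FastQC, STAR, DESeq2 and the build GRCm39, with no versions. Strand setting and counting mode: not given in the sources used here. No label names a column, so the columns were used as 9 libraries of 1 tissue with no guide, and the planned tests between guides were not run. All pairs of libraries differed beyond sampling noise (chi-square per degree of freedom 10.17 to 95.01 over 36 pairs), so none is a repeat deposit. Nothing says whether they are separate animals, so p-values refer to these libraries only. Each p is the share of all pairings of the libraries that gave an association at least as strong. It treats the libraries as exchangeable, although both guides are among them, unassigned.

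CPM was computed from column sums of 15460829 to 17909534 counts. Genes of mean CPM of at least 1 were tested with scipy 1.17.1: Spearman's rho, exact over 362880 pairings, with Benjamini-Hochberg adjustment, and Pearson's r of log2(CPM + 1). The test was checked on simulated data. No pooled correlation was given for a gene whose largest gap between libraries exceeded 0.5 of its log2 range with at least 2 libraries on each side, and a cluster needed 6 libraries. This rule was stated for Ucp1 and extended to the other genes after their values were seen; Thrsp lay just over it, at 0.503. edgeR 4.0.16 and DESeq2 1.42.0 supplied scaling factors for alternatives only. Gene names and exon lengths are from GENCODE M21 and promoters from RefSeq, both on GRCm38, so no coordinate was joined to the counts.

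The genes and lists were chosen with earlier results of these data known. The rule for further genes named the 4 highest and 2 lowest rho with Fasn when none passed the adjustment, and the 5 genes most like Fasn and most like the members' mean.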

Additional observations from a re-analysis of the deposited data

Results flagged for a closer look

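Acacb stood apart in 1 library: BAT-J held 2544.1 CPM, the next highest library 1987.5 and the lowest 1523.6. The gap was 0.545 of the whole range, above Dixon's 95% critical value of 0.493 for 9 libraries. On the log2 scale the same gap was 0.482 of the range, under that value, so the call holds for untransformed CPM only. In CPM, Acacb was the only one of 16 sets of values past that limit, and chance alone passes about 1 in 20 sets. BAT-J was also the highest library for Fasn and Mlxipl. It had the lowest share of mitochondrial genome genes, 22.3% of its counts, and the highest adipocyte marker sum, 16745.6 CPM. The highest level of Acacb over its lowest was 1.67 in CPM. That ratio was 1.47 with mitochondrial genome genes left out of the total and 1.48 with levels scaled to adipocyte markers. Both forms of the gap are from CPM, and whether it remains under these scalings was not tested.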

How the results depend on the processing

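No count of adjusted calls changed from 0 under any alternative run. The 7 positive pairs at an unadjusted exact p under 0.05 became 3 without mitochondrial genome genes in the total, 2 with levels scaled to adipocyte markers, 3 without BAT-A and BAT-C (chosen after seeing the data), and 3 to 9 on leaving out each library in turn, 3 without BAT-A. The 6 further pathway genes became 0, 0 and 0 under the same alternatives and 2 to 6 on leaving out 1 library. Without BAT-A and BAT-C the highest level over the lowest was 1.51 for Acaca, 1.74 for Acly, 1.37 for Fasn, 1.82 for Scd2 and 1.29 for Thrsp. On leaving out each library it was 1.3 to 1.67 for Acacb, 1.3 without BAT-J. The cause was not tested. The single correlations cover only the 7 pairs picked for passing the unadjusted threshold, so a pair that gained it could not appear. Among their values 75 kept their side of the threshold and 37 lost it, and none reversed. For these 7 pairs the 2 libraries farthest from the median are BAT-A and BAT-C. The run without them is therefore counted 2 times in these numbers. Acaca with Fasn kept it in every alternative run, with rho 0.857 to 0.929 on leaving out each library. No paired analysis was possible because no library carries a replicate number. The comparison between guides, DESeq2's test, the replicate block and all alternatives on the correlation with Ucp1 were not run. The 95% counting interval reached at most 6.47% of a level to either side, so the number of libraries limits these correlations more than depth does.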

Other observations

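Scd3, a desaturase close in sequence to Scd1, had 1 to 5 counts in BAT-A, BAT-B, BAT-C, BAT-D and BAT-E, 14 in BAT-H, and 91, 104 and 140 in BAT-J, BAT-G and BAT-F. Of the 50-base windows of Scd1, 4.562% occur in other genes, among them Scd3. Scd1 had 703419 counts in BAT-D, where Scd3 had 5, and 663522 in BAT-F, where Scd3 had 140. The part of shared sequence in the Scd3 counts was not tested.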
